A study of Mus musculus with 4 samples.

Results

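Proteoglycans are proteins that carry long sulfated sugar chains, the glycosaminoglycans. The 10 genes described here encode 6 small leucine-rich proteoglycans of the matrix (Dcn, Bgn, Lum, Fmod, Prelp and Ogn), 3 syndecans of the cell surface (Sdc1, Sdc2 and Sdc4) and 1 glypican (Gpc1). They were taken by gene symbol, as every probe of the Illumina mouse bead array that the platform table assigns to one of these symbols, which gave 15 probes among 24613 on the array, of 10903 named genes with a measured probe. All 15 probes lay above background on at least 1 array, as did 15767 probes in all.

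RNA of 4 samples was hybridised, 1 array each. T23 and T1525 were prostate tumor cell lines derived at 30 weeks of age from TRAMP mice on the C57Bl/6 strain, a model in which a probasin promoter drives SV40 tumor antigens in prostate epithelium. The controls were 2 arrays of whole normal prostate from WT C57Bl/6 mice at 18 weeks, called normal 1 and normal 2 and always given in that order. The labels name neither a clone nor repeat cultures of a line, and do not say whether the normal arrays came from separate animals, so every p-value reflects just how far these arrays vary, which may be technical. Age, transgene, culture and tumor cannot be told apart, because they change together between the lines and the tissue.

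Small leucine-rich proteoglycans are secreted mainly by fibroblasts and other connective tissue cells, bind collagen fibrils and set their spacing and thickness, and some also bind growth factors of the TGF-beta family. Their core proteins carry chondroitin, dermatan or keratan sulfate, or few chains at all. Syndecans span the plasma membrane and glypicans are held to it by a lipid anchor; both bear heparan sulfate, which holds growth factors such as FGFs close to their receptors. In the prostate the matrix members belong to the stroma around the glands, while Sdc1 is known as the main syndecan of epithelium and Sdc2 as that of mesenchymal cells.

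Upstream sequences of 6 of the 10 genes (Bgn, Fmod, Prelp, Ogn, Sdc1 and Sdc4) were matched by symbol in RefSeq's promoter table of build GRCm38.p6. The 4 shown are those of Bgn and Ogn, which read above both normal arrays in T23 and not above background in T1525, and of Sdc1 and Sdc4, which were measured on all 4 arrays. Each is the 250 bases before the annotated start, 5′ to 3′ along the gene, at chrX:73483351-73483600 on the plus strand for Bgn, chr13:49607765-49608014 on the plus strand for Ogn, chr12:8771146-8771395 on the plus strand for Sdc1 and chr2:164443189-164443438 on the minus strand for Sdc4. Capitals mark matches on either strand to the GC box GGGCGG, to TATAAA or to the E-box CAGGTG.
Bgn: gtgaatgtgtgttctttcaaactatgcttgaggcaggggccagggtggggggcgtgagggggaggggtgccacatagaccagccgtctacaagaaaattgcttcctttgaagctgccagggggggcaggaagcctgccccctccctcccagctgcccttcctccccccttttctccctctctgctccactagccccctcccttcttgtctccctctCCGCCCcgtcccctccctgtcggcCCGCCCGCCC
Ogn: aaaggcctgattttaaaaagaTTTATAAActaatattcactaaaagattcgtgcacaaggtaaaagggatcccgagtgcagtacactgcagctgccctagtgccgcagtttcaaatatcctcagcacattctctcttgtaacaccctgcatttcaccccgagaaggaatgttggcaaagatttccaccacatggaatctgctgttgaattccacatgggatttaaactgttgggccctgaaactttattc
Sdc1: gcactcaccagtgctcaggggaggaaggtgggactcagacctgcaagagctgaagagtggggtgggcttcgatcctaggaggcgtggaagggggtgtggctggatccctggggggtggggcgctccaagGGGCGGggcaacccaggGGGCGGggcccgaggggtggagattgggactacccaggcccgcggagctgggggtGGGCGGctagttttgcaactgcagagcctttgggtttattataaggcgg
Sdc4: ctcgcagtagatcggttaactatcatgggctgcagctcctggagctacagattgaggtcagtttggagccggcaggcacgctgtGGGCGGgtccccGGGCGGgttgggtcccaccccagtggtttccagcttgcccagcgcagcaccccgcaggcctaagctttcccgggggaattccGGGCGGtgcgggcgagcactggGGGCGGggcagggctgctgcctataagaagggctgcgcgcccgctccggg

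The GC box was found at 4 places in Sdc4, 3 in Sdc1 and 3 in Bgn, where the last 2 matches overlap, and at 0 places in Ogn, Fmod and Prelp. It was held by 32.7% of the 32851 upstream windows that RefSeq gave. TATAAA was found in Ogn alone among the 6, as 2 overlapping matches on opposite strands at 229 and 227 bases before the start, and 12.4% of all windows held it. The E-box was in 0 of the 6 and in 17.2% of all windows. The windows of Sdc4, Sdc1 and Bgn were 68.0%, 66.0% and 64.4% G or C and that of Ogn 42.0%, against a median of 52.4%. These are matches of letters in a window, and their relation to the values on the arrays was not tested.

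The deposited intensities had been normalized by the authors. They were taken on the log2 scale, where 1 unit is a doubling, and an array counted as above background past 6.69, an intensity of 103. Levels are compared within a probe only, since the brightness of different probes is not comparable. Of the 15767 probes 59.7% were above background on all 4 arrays, and 20.7% were not above it in T23 and 20.7% not in T1525. Where an array was not above background, its value was set to 6.69 before a fold was taken, and the fold is given as at least that much. The fitted difference printed with an adjusted p (limma, Benjamini-Hochberg over all 15767 probes, two-sided) uses the values as measured and does not test that bound.

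Markers of cell types differed between the lines, and their part in the results below was not tested. Of 8 measured fibroblast markers 7 were above background in T23, 3 in T1525 and 8 in each normal array, with a summed intensity of 25065 in T23 and 831 in T1525, against 6145 and 13301 in the normal arrays. In T1525 Col1a1, Col1a2, Col3a1, Thy1 and Mfap5 were not above background. Fbln1 went the other way, not above background in T23, at 6.19, and above it in T1525, at 6.87. In T23 Col1a1, Col1a2, Col3a1, Pdgfra and Mfap5 lay above both normal arrays, and Thy1, Dpt and Fbln1 lay below both. Of 8 luminal epithelial markers 2 were above background in T23 and 6 in T1525, and their summed intensity was 1048 in T23, 30173 in T1525 and between 48442 and 56856 in normal prostate. Krt8 (a luminal keratin) and Cdh1 (E-cadherin) were not above background in T23, although the label calls it a prostate tumor line. They read 14.12 and 10.96 in T1525. Krt18 was above background in T23 but lower there than in T1525, at 8.94 against 13.01, with 13.82 and 13.40 in the normal arrays. Foxa1 was not above background in T23 and read 10.62 in T1525. Other luminal markers went the other way or were low in both lines. Hoxb13 was above background in T23, at 7.18, against 13.45 and 12.28 in the normal arrays. In T1525 Pbsn and Hoxb13 were not above background, and Tmprss2 read 8.37 against 12.98 and 12.91 in the normal arrays. Of 7 mesenchymal genes 7 were above background in T23, 5 in T1525 and 6 in each normal array. The summed intensity was 48484 in T23 and 12679 in T1525, against 8229 and 18244 in normal 1 and normal 2. Cdh2 read about alike in the lines, at 7.65 in T23 and 7.73 in T1525, and the other genes of this list read higher in T23 than in T1525. Zeb2 alone did not lie above both normal arrays in T23, at 9.20 against 9.21 and 11.09. Of 8 smooth muscle markers 5 were above background in T23 and 1 in T1525, against 8 in each normal array, and the summed intensity was 29657 in T23, 1069 in T1525 and between 158321 and 168920 in normal prostate. Myh11, Cnn1 and Des were not above background in either line. The summed intensities add probes of unlike brightness and rest mainly on the brightest, so they do not measure the level of a cell type. Such bright probes were Vim in the mesenchymal list, at 15.11 in T23 and 13.43 in T1525, and Acta2 in the smooth muscle list, at 14.72 in T23. Endothelial markers were above background for 2 of 7 in T23 and 1 of 7 in T1525, leukocyte markers for 0 and 1 of 6, skeletal muscle markers for 0 and 2 of 5, basal epithelial markers for 1 and 3 of 5, and those of fat and of Schwann cells for 0 of 2 in each line. Normal 1 and normal 2 had 7 and 7 of the endothelial, 5 and 6 of the leukocyte, 5 and 5 of the skeletal muscle and 5 and 5 of the basal markers above background, and 2 and 2 of those of fat and of Schwann cells.

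**Figure D1:**
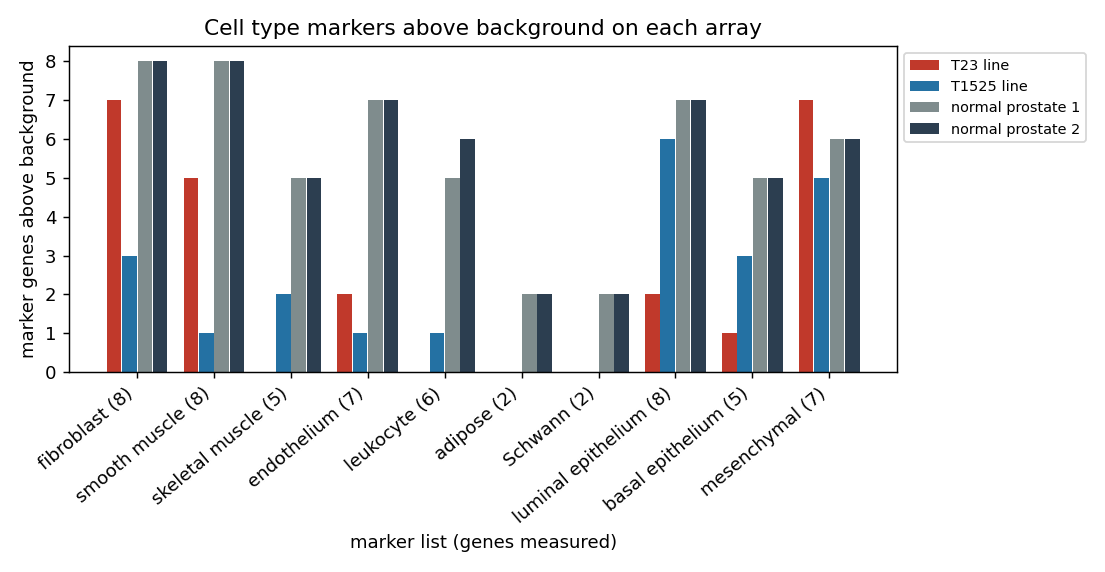
Number of marker genes above background (bars, from 0) on each of the 4 arrays, for 10 lists of cell type markers, with the number of measured genes of each list in brackets. T23 has 7 of 8 fibroblast and 2 of 8 luminal markers above background, and T1525 has 3 and 6.

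The lines parted over the matrix proteoglycans. In T1525 none of the 6 small leucine-rich genes was above background on any of their 10 probes, and neither was Sdc2, while Sdc1, Sdc4 and Gpc1 were. In T23 4 of the 6 matrix genes (Dcn, Bgn, Prelp and Ogn) and all 4 cell surface genes were above background. All 10 genes were above background in both normal arrays. Counted as probes, 11 of 15 were not above background in T1525, against 20.7% of all probes, and 2 of 15 were not in T23. The pattern of being above background in T23 and both normal arrays but not in T1525 was shown by 9 of 15 probes and by 4.36% of all probes. In whole tissue, fewer cells of a type and less RNA per cell cannot be told apart.

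**Figure D2:**
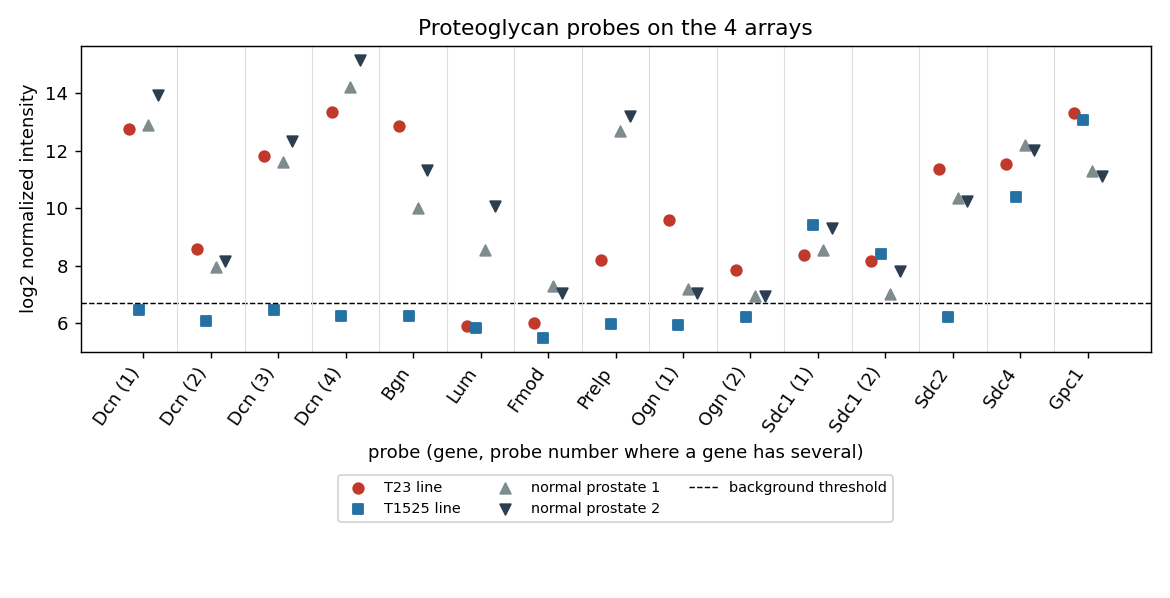
Log2 normalized intensity (y axis) of the 15 proteoglycan probes (x axis, 1 column a probe) on the 4 arrays; each point is 1 array and the dashed line is the background threshold of 6.69. The T1525 squares lie under the line for all matrix members and Sdc2, and the T23 circles do so only for Lum and Fmod.

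Each line was set against normal prostate in a fit of 3 groups, in which the spread came from the 2 normal arrays and the single array of a line was assumed to vary like them. Both comparisons used the same normal arrays. In T1525 11 of the 15 probes were called lower, against 12.6% of all probes, and 1 was called higher, against 17.2%. In T23 3 were called lower and 3 higher, against 12.8% and 16.3% of all probes. With 1 probe for each of the 10 genes, the median difference from normal was -2.59 in T1525 and -0.56 in T23, and over all probes it was 0.16 and 0.17. Scaling moved that background: with median scaling it was -0.09 in T1525 and -0.07 in T23, and the share of calls that were higher went from 57.7% to 44.2% in T1525 and from 56.1% to 41.9% in T23 (46.3% and 44.8% with cyclic loess). These calls depended on how dim values were treated: with every value at background raised to the threshold before the fit, the prior degrees of freedom fell and 1 member probe was called lower and 0 higher in T1525, and 0 lower and 1 higher in T23. The 1 lower in T1525 was Sdc2, and the 1 higher in T23 was not among the 3 called higher without that step. Every call of a member in a single line given below, apart from Sdc2 in T1525, therefore ended with that setting.

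Decorin, encoded by Dcn, is the collagen-binding proteoglycan that also binds TGF-beta, and it has 4 probes on the array. The brightest, ILMN_2747959, read 13.34 in T23, 6.26 in T1525 and, in the normal arrays, 14.23 and 15.16. T1525 was not above background, and T23 was the lowest of the other 3 arrays. Dcn was at least 257-fold lower in T1525 than in normal prostate (fitted difference -8.44, SE 0.46, adjusted p = 0.00508). In T23 it was 2.55-fold below the normal mean, a difference of -1.35 that did not pass (SE 0.46, adjusted p = 0.102).

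The other probes of Dcn gave T1525 the same place and T23 a varying one. ILMN_2596346 read 12.74 in T23, 6.48 in T1525 and, in the normal arrays, 12.90 and 13.93, and ILMN_2716756 read 11.84, 6.48, 11.60 and 12.34 in the same order. The dimmest, ILMN_2604695, read 8.59, 6.08, 7.95 and 8.18. T23 was thus below both normal arrays on 2 probes, between them on 1 and above both on 1, and no probe of Dcn passed in T23 (adjusted p between 0.102 and 0.805). All 4 probes were called lower in T1525, by at least 2.58-fold on the dimmest, and the bound is small there because the normal arrays lay close to background.

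Bgn encodes biglycan, the X-linked relative of decorin. It read 12.86 in T23, 6.25 in T1525 and, in the normal arrays, 9.9999 and 11.32. T23 was the highest array and T1525 was not above background, and the normal arrays stood 1.32 apart. In T1525 Bgn was at least 15.7-fold lower than in normal prostate (fitted difference -4.41, SE 0.62, adjusted p = 0.0172). In T23 it was 4.58-fold above the normal mean, and that difference of 2.19 did not pass (SE 0.62, adjusted p = 0.0683), although it did when only probes above background on at least 2 arrays were tested (adjusted p = 0.0438).

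Lum encodes lumican, a keratan sulfate proteoglycan of collagen fibrils. It read 5.89 in T23, 5.84 in T1525 and, in the normal arrays, 8.54 and 10.08. Neither line was above background, and the groups did not overlap. Lum was at least 6.14-fold lower in each line, with a fitted difference of -3.42 in T23 (SE 0.71, adjusted p = 0.0374) and -3.47 in T1525 (adjusted p = 0.0355). Both calls ended with median scaling (adjusted p = 0.0525 in T23 and 0.0513 in T1525), with cyclic loess (0.0532 and 0.0514), with an offset of 50 on the intensity (0.0796 and 0.0780) and with background values raised to the threshold (0.293 and 0.296).

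Fmod encodes fibromodulin, which shares a collagen binding site with lumican. It read 6.01 in T23, 5.51 in T1525 and, in the normal arrays, 7.30 and 7.04. The normal arrays were only just above background, so the lines were at least 1.39-fold lower and nothing larger could be measured. The fitted differences of -1.16 in T23 (SE 0.25, adjusted p = 0.0393) and -1.66 in T1525 (adjusted p = 0.0192) rest on values at background. The call in T23 ended with the offset of 50 (adjusted p = 0.0691), and both ended with background values raised to the threshold (0.273 in T23 and 0.275 in T1525).

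Prelp encodes prolargin, a heparin-binding member that links basement membranes to the connective tissue beneath. It read 8.21 in T23, 5.99 in T1525 and, in the normal arrays, 12.71 and 13.22. Both lines were below both normal arrays, and T23 was above background where T1525 was not. Prelp was 26.9-fold lower in T23 (difference -4.75, SE 0.31, adjusted p = 0.00641) and at least 77.1-fold lower in T1525 (fitted difference -6.97, SE 0.31, adjusted p = 0.00505). Among the 4 matrix genes that T23 expressed above background, Prelp alone was called lower there. Both calls of Prelp ended with background values raised to the threshold (adjusted p = 0.0764 in T23).

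Ogn encodes osteoglycin, also called mimecan, and has 2 probes. ILMN_2718378 read 9.60 in T23, 5.94 in T1525 and, in the normal arrays, 7.20 and 7.07. T23 stood above both normal arrays, which were close to background, and T1525 was not above background. Ogn was 5.55-fold higher in T23 (difference 2.47, SE 0.23, adjusted p = 0.00956) and at least 1.36-fold lower in T1525 (fitted difference -1.19, adjusted p = 0.0309, and 0.0563 with the offset of 50). Both calls of this probe ended with background values raised to the threshold. The dimmer ILMN_2740622 read 7.87 in T23, 6.24 in T1525 and, in the normal arrays, 6.94 and 6.96. It placed the arrays the same way and passed in neither line (T23 difference 0.91, adjusted p = 0.0501; T1525 difference -0.72, adjusted p = 0.0807).

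Sdc2, the syndecan of fibroblasts and other mesenchymal cells, was the cell surface member that followed this division. It read 11.38 in T23, 6.22 in T1525 and, in the normal arrays, 10.35 and 10.25. T23 was the highest array, the normal arrays were 0.09 apart and T1525 was not above background. Sdc2 was 2.12-fold higher in T23 (difference 1.08, SE 0.22, adjusted p = 0.0371) and at least 12.2-fold lower in T1525 (fitted difference -4.08, SE 0.22, adjusted p = 0.00508). The call in T23 ended with median scaling (difference 0.84, adjusted p = 0.0564) and with cyclic loess (0.85, adjusted p = 0.0542) and with background values raised to the threshold (adjusted p = 0.0679), while that in T1525 passed under all the alternatives that gave a test.

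Sdc1, the syndecan of epithelia and plasma cells, has 2 probes. The brighter, ILMN_1228718, read 8.40 in T23, 9.41 in T1525 and, in the normal arrays, 8.54 and 9.32, and ILMN_1232708 read 8.18, 8.42, 7.03 and 7.83 in the same order. The lines stood just outside the normal arrays on the first probe, on opposite sides, and above both on the second. No difference passed: for the first probe it was -0.54 in T23 (SE 0.40, adjusted p = 0.355) and 0.48 in T1525 (adjusted p = 0.407), and for the second 0.75 (SE 0.41, adjusted p = 0.231) and 0.995 (adjusted p = 0.144). With standard errors of this size a change of about that much was not detectable.

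Sdc4, a broadly expressed syndecan of focal adhesions, read 11.53 in T23, 10.39 in T1525 and, in the normal arrays, 12.20 and 12.02. Both lines were below both normal arrays. T1525 was 3.29-fold lower (difference -1.72, SE 0.23, adjusted p = 0.0165), and T23 1.49-fold lower without passing (difference -0.58, SE 0.23, adjusted p = 0.139).

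Gpc1, the lipid-anchored glypican known as a co-receptor for FGFs, read 13.33 in T23, 13.08 in T1525 and, in the normal arrays, 11.31 and 11.14. Both lines were above both normal arrays and 0.25 apart. Gpc1 was 4.29-fold higher in T23 (difference 2.10, SE 0.23, adjusted p = 0.0127) and 3.61-fold higher in T1525 (difference 1.85, adjusted p = 0.0144). It was the only one of the 10 genes called higher in both lines. Both calls ended with background values raised to the threshold. That setting changed none of the values of Gpc1, which were all above background, and left both differences as they were, while the prior degrees of freedom of the fit fell.

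**Figure D3:**
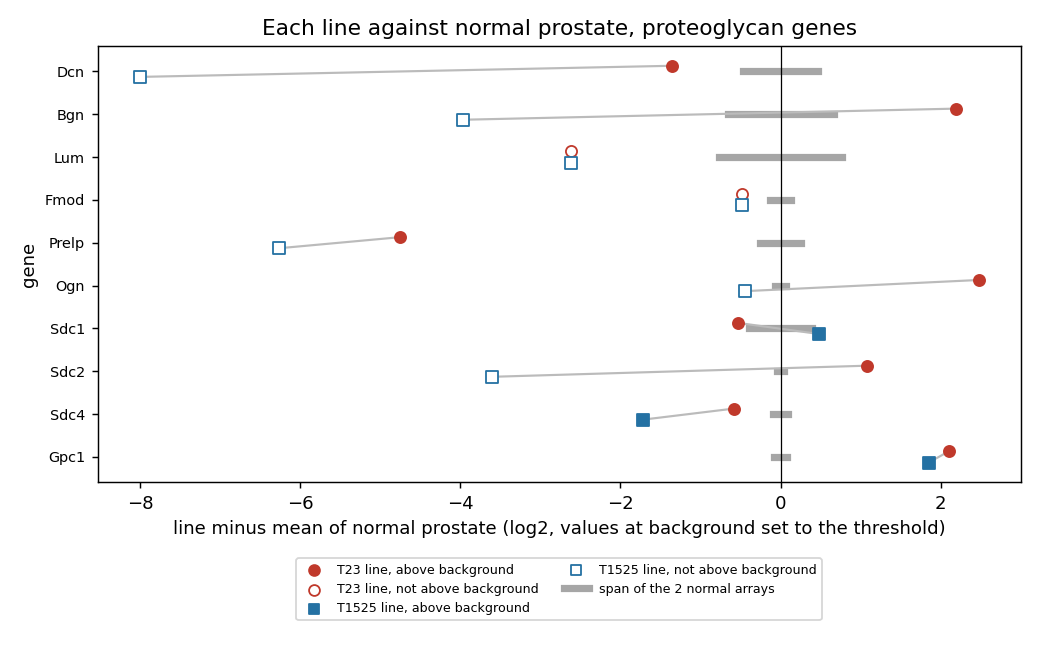
Difference of each line from the mean of the 2 normal prostate arrays (x axis, log2, values at background set to the threshold) for the 10 proteoglycan genes, 1 probe a gene; open symbols are arrays not above background, where the difference is a bound, and grey bars span the 2 normal arrays. Gpc1 lies to the right in both lines. Bgn, Ogn and Sdc2 lie on opposite sides of 0 with T23 to the right, and Sdc1 does so with T1525 to the right.

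Taken as a class, the 2 lines were also compared with the 2 normal arrays. Only 3 of the 15 probes were called. The lines averaged 13.20 ± 0.18 (SD, n = 2) for Gpc1 and the normal arrays 11.23 ± 0.12 (SD, n = 2), so that it was 3.93-fold higher (limma, SE 0.24, adjusted p = 0.0263); 5.64% of all probes were called higher. Prelp was 7.10 ± 1.57 (SD, n = 2) and 12.96 ± 0.36 (SD, n = 2), with a difference of -5.86 (SE 0.83, adjusted p = 0.0329). Lum was 5.87 ± 0.04 (SD, n = 2) and 9.31 ± 1.09 (SD, n = 2), with a difference of -3.44 (SE 0.58, adjusted p = 0.0436). Of all calls in this comparison 52.4% pointed up; median scaling made that 36.4% and cyclic loess 37.8%, and the median over all probes was 0.19, -0.05 and 0.02. For the lower direction, 2 of 15 probes stand beside 5.13% of all probes. Both lines lay below both normal arrays on 6 probes and above both on 2, against 23.4% and 35.1% of all probes, once background values were raised to the threshold.

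For Dcn, Bgn, Sdc2 and Ogn the class difference averages lines that lay far apart. Dcn had the second largest class difference after Prelp, -4.89, with a standard error of 2.51 (adjusted p = 0.267). It was -8.44 without T23 and -1.35 without T1525. Bgn was -1.11 with both lines (adjusted p = 0.763), -4.41 without T23 and 2.19 without T1525. Sdc2 was -1.497 (adjusted p = 0.598), -4.08 without T23 and 1.08 without T1525, and Ogn was 0.64 (adjusted p = 0.752), -1.19 without T23 and 2.47 without T1525. The sign of these 3 genes therefore rests on which line is kept. Without T23 11 of the 15 probes were called lower and 1 higher, against 13.8% and 18.4% of all probes. Without T1525 3 were called lower and 3 higher, against 13.5% and 17%, which is near the background. Without either normal array 0 were called in the class comparison by limma, where 0 of all probes passed (before adjustment 2507 and 2266 had p under 0.05, and 4990 did when all arrays were kept).

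T23 and T1525 were set against each other as single arrays, with no test. Once background values were raised to the threshold, T23 was at least 1 unit above T1525 on 10 of 15 probes, as were 9.01% of all probes, and T1525 was so above T23 on 1, as were 9.16%. Dcn was at least 101-fold, Bgn at least 71.6-fold and Sdc2 at least 25.8-fold higher in T23. Ogn was at least 7.52-fold and Prelp at least 2.87-fold higher, and Sdc4 2.21-fold higher. Sdc1 was 2.02-fold lower in T23 on its brighter probe and 1.18-fold lower on the other. Gpc1 differed 1.19-fold. The normal arrays differed from each other by at most 1.55 on any of these probes, at Lum, and by 1.32 at Bgn and 0.94 at the brightest probe of Dcn.

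On 5 of 15 probes, of Bgn, Ogn (both probes), Sdc2 and the dimmest of Dcn, T23 lay above both normal arrays and T1525 below both, as did 6.1% of all probes. For Dcn this holds on the dimmest probe only; its other 3 probes put T23 between or below the normal arrays. The opposite placing was shown by 1 probe, the brighter one of Sdc1, and by 6.25% of all probes. The difference between the lines was not tested.

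Several of these genes lie side by side in the genome. In RefSeq's GRCm38.p6 annotation no protein-coding gene stands between Dcn and Lum, nor between Lum, Kera and Epyc; the same holds for Optc, Prelp and Fmod, and for Ecm2, Aspn, Omd and Ogn. Neighbours did not all read alike in T23. Dcn was 13.34 there and Lum next to it was not above background, and Prelp was 8.21 with Fmod next to it not above background. In the group of Ogn, Omd (osteomodulin) read 8.37 in T23, 6.26 in T1525 and, in the normal arrays, 6.34 and 6.30. It was above background in T23 alone, at least 3.20-fold above normal. Ecm2 was likewise above background only in T23, at 7.07. Both genes entered the fit through T23 alone, so no test is given for them. Aspn was not above background on any array. Kera and Epyc were not above background on any array either.

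For each gene the closest patterns were sought among the 10893 other named genes with a measured probe, as the smallest Euclidean distance between centred log2 values over the 4 arrays. With 4 arrays many genes lie close, so these are descriptions. Loxl1, a lysyl oxidase that acts on elastin, was closest to Bgn (distance 0.33; 13.25 in T23, 6.50 in T1525 and, in the normal arrays, 10.02 and 11.77), followed by Ptgis, the prostacyclin synthase (0.51). Tpm2, beta-tropomyosin, was closest to Dcn (distance 1.02; 13.03, 6.20, 15.26 and 15.28), followed by 4933416I08Rik (1.16). Mxra8, a cell surface protein of mesenchymal cells, and Myadm were closest to Sdc2 (0.41 and 0.45), and Etv4, an ETS transcription factor, and Gsdme, a gasdermin, to Ogn (0.27 and 0.39). Mmrn2 and Sox18, both genes of endothelium, were closest to Lum (0.15 and 0.20), which was higher in normal 2 like them. Adh1 and Gata3 were closest to Prelp (0.63 and 0.88), Tk2 and Chpt1 to Fmod (0.06 and 0.07), Rpp25 and Golm1 to Sdc1 (0.08 and 0.12), Slc39a7 and Hoxb6 to Sdc4 (0.08 and 0.13), and Vdac3 and Smarcc1 to Gpc1 (0.12 and 0.12).

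Other core proteins of the same families were read from lists. Their counts stand beside 16.3% of all probes called higher and 12.8% called lower in T23, and 17.2% and 12.6% in T1525. Of 11 further small leucine-rich genes 9 had a probe and 6 were above background on some array. In T23 1 was called lower, and in T1525 0 were called higher and 3 lower. The 1 called higher in T23 is Omd, which entered the fit through T23 alone, so its call carries no weight. Chad (chondroadherin) read 8.43 and 8.37 in normal prostate and did not exceed background in T23 or T1525, which makes it at least 3.26-fold lower (class adjusted p = 0.0237). Of 6 further syndecans and glypicans 5 were measured. Sdc3, the syndecan best known from nerve and muscle, was lower in both lines, at 7.07 in T23, 8.02 in T1525 and, in the normal arrays, 9.96 and 10.79 (class difference -2.83, adjusted p = 0.0456). Gpc3 fell in both (class difference -1.83, adjusted p = 0.0456), while Gpc4 was higher in T23 (difference 1.88, adjusted p = 0.0144) and not above background in T1525. Of 5 measured genes in that list T1525 had 2 above background, Sdc3 and Gpc2, and T23 had 4.

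Of 18 other proteoglycans and their link proteins 12 were measured; 2 were called higher and 4 lower in T23, and 1 higher and 5 lower in T1525. The 2 higher in T23 are near the share of all probes. Hspg2, the basement membrane proteoglycan perlecan, read 11.43 in T23, 8.49 in T1525 and, in the normal arrays, 11.02 and 11.94. It lay within the normal arrays in T23 and was 7.97-fold lower in T1525 (difference -2.99, adjusted p = 0.0204). Cd44, the hyaluronan receptor that can carry chondroitin or heparan sulfate, went the other way, at 7.01 in T23, 11.10 in T1525 and, in the normal arrays, 6.51 and 7.62 (T1525 difference 4.03, adjusted p = 0.0156). Esm1, the dermatan sulfate proteoglycan endocan, was 5.84-fold higher in T23 (difference 2.55, adjusted p = 0.0309) and not above background in T1525. Spock1 (testican), at 8.04 and 8.21 in normal prostate, exceeded background in neither line (class difference -2.005, adjusted p = 0.024).

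**Figure D4:**
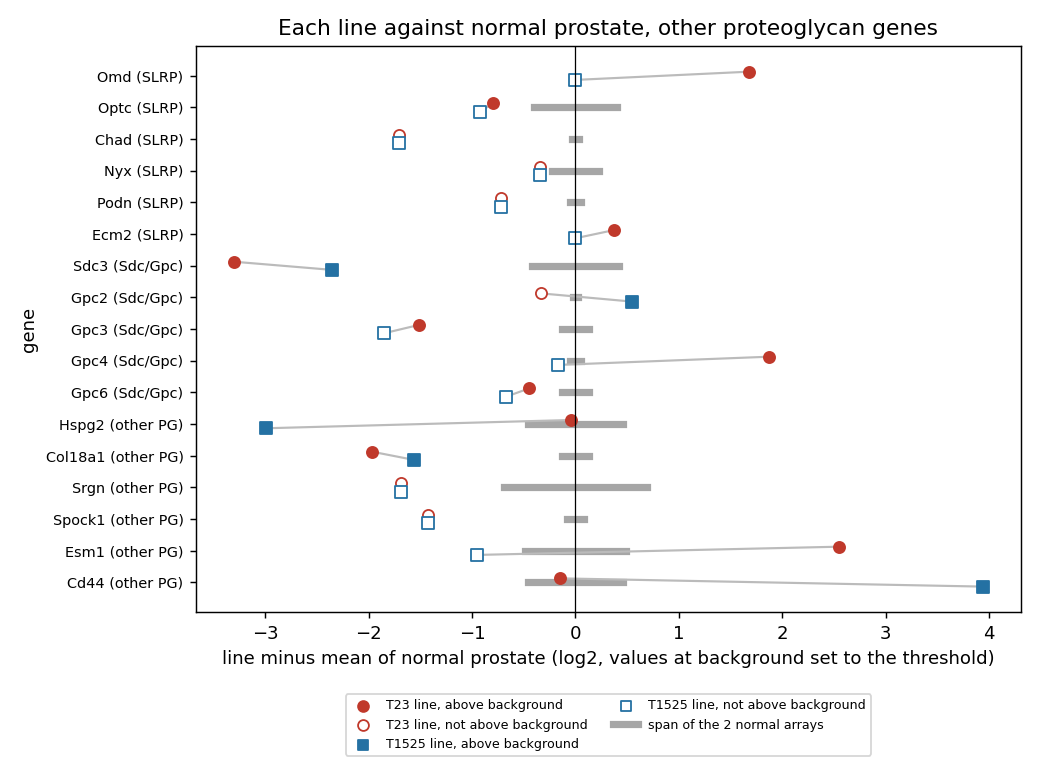
Difference of each line from the mean of the 2 normal prostate arrays (x axis, log2, values at background set to the threshold) for 17 other proteoglycan genes named by the rule; open symbols are arrays not above background and grey bars span the 2 normal arrays. Omd, Ecm2, Gpc4 and Esm1 lie right of 0 only in T23, and Gpc2 and Cd44 only in T1525.

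The enzymes that build and edit the chains were read from 4 lists. In the linker list, which holds the enzymes that start chondroitin, dermatan and heparan sulfate chains and supply precursors, 0 of 7 measured genes were called in either line by limma (2 in T23 and 3 in T1525 had an unadjusted p under 0.05; 1 in each line with median scaling, 2 in T23 with cyclic loess and 1 in T23 among probes above background on at least 2 arrays). Of 16 heparan sulfate enzymes 2 were called higher and 3 lower in T23, and 3 higher and 1 lower in T1525, with median differences of 0.05 and 0.10. These counts are near the shares of all probes called in T23 and for the higher direction in T1525, and 1 of the higher calls in T23 and 2 in T1525 are of genes not above background in normal prostate. Both polymerase subunits read higher in the lines: Ext1 was 11.19 in T23, 11.41 in T1525 and, in the normal arrays, 9.85 and 10.26 and passed in T1525 (difference 1.36, adjusted p = 0.0368; T23 difference 1.14, adjusted p = 0.0541), and Ext2 passed in T23 (difference 1.30, adjusted p = 0.0293).

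Of the 16 heparan sulfate enzymes 2 were at least 1 unit higher in T23 than in T1525 and 3 at least 1 unit lower, and the median difference between the lines was -0.02. These counts, not tested, stand beside 9.01% of all probes at least 1 unit higher in T23 and 9.16% at least 1 unit lower. Hs3st1, a 3-O-sulfotransferase of the kind that makes the antithrombin binding site, read 6.18 in T23, 11.49 in T1525 and, in the normal arrays, 8.53 and 10.06. It was at least 6.08-fold lower in T23 (adjusted p = 0.0438), and 4.57-fold above the normal mean in T1525 without passing (adjusted p = 0.0876). Hs3st3a1 was at least 5.68-fold lower in T23 (adjusted p = 0.0143) and 9.45 in T1525, between the normal arrays at 9.52 and 8.87. Sulf1, an extracellular 6-O-endosulfatase, read 9.56 in T23, 6.11 in T1525 and, in the normal arrays, 9.90 and 11.02, at least 13.6-fold lower in T1525 (adjusted p = 0.0141). Hpse, the heparanase that cleaves these chains, read 8.45 in T1525 and 7.03 in T23 and was not above background in normal prostate, so that it was at least 3.39-fold higher in T1525.

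Of 8 measured chondroitin and dermatan sulfate enzymes 0 were called in T23 by limma (4 had an unadjusted p under 0.05, and other settings called up to 2), and 1 higher (Chst11) and 2 lower in T1525. Of all probes 17.2% were called higher and 12.6% lower in T1525, and 16.3% and 12.8% in T23. Chst11, a chondroitin 4-O-sulfotransferase, was 8.80 in T1525, 7.03 in T23 and not above background in normal prostate, at least 4.32-fold higher in T1525. Chst11 thus entered the fit through the lines alone, so its call carries no weight. Chpf, a chondroitin polymerizing factor, was 8.69 in T1525 and between 10.65 and 10.98 on the other arrays, 4.36-fold lower in T1525 (adjusted p = 0.0139). Of 5 keratan sulfate enzymes 2 were called lower in T23 and 3 in T1525, against 12.8% and 12.6% of all probes. Chst1, the keratan sulfate 6-O-sulfotransferase, read 7.57 in T23, 6.30 in T1525 and, in the normal arrays, 10.26 and 11.05, and was lower in both lines (class difference -3.72, adjusted p = 0.0369).

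**Figure D5:**
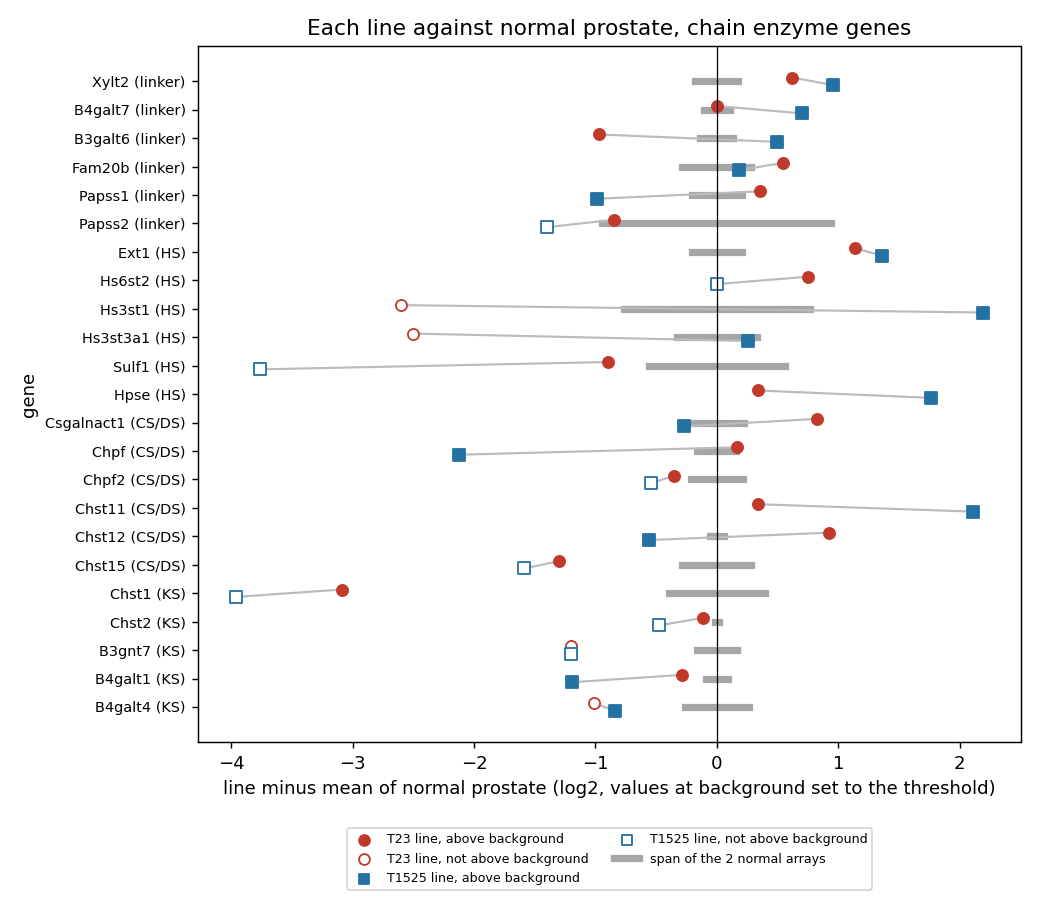
Difference of each line from the mean of the 2 normal prostate arrays (x axis, log2, values at background set to the threshold) for 23 chain enzyme genes named by the rule; open symbols are arrays not above background and grey bars span the 2 normal arrays. Sulf1 and Hs3st1 show the widest gaps between the lines, and Chst1 lies left of the normal arrays in both.

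Among 7 proteins that bind the cytoplasmic tails of syndecans or signal from them, 1 was called higher in T23 and 2 in T1525, and 0 lower. With 7 genes these counts are not set apart from the shares of all probes called higher, 16.3% in T23 and 17.2% in T1525. Sdcbp, the PDZ protein syntenin, read 12.00 in T23, 10.74 in T1525 and, in the normal arrays, 11.02 and 11.11 (T23 difference 0.93, adjusted p = 0.0492). That call ended with median scaling, with cyclic loess, with a stricter background tail, with background values raised to the threshold and without T1525. Tiam1, a Rac exchange factor, was 10.08 in T23, 11.97 in T1525 and, in the normal arrays, 9.55 and 10.04 (T1525 difference 2.17, adjusted p = 0.0175), and Synj2bp was 10.92 in T1525 and 9.60 in T23 (T1525 difference 2.02, adjusted p = 0.0116). Over the 98 genes of all 8 lists, 66 were measured. In T23 7 were called higher and 12 lower, against 16.3% and 12.8% of all probes. In T1525 7 were called higher and 17 lower, against 17.2% and 12.6%. In the class comparison 0 were called higher and 7 lower, against 5.64% and 5.13%. Of the higher calls 2 in T23 and 3 in T1525 are of genes not above background in normal prostate.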

How the data were processed

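Values were normalized intensities on a linear scale as deposited by the authors for 4 Illumina arrays of mouse RNA, 1 per sample; per the submitters' processing notes they were made with BeadStudio, whose version and normalization method the sources used here do not give. The sorted values of the 4 columns differed by a median of 0.183%, as after quantile normalization. A table of signals before normalization names its 8 columns of values for single samples by slide position alone; it was not used here, so no slide block and no detection p-value entered.

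Log2 intensities were used. The background threshold of 6.69 was the mode of all log2 values (6.12) plus the upper 0.01 tail of a normal curve whose SD came from values left of it (0.247). Tests used limma 3.58.1 (R 4.3.3) on probes that exceeded it on 1 array or more, with 2 residual and 2.07 prior degrees of freedom for lines against normal, and 1 and 2.95 in the fit of 3 groups. The fits were tested on simulated data. A call is an adjusted p under 0.05. A gene in a list is represented by its measured probe with the highest mean. Figures used matplotlib 3.10.9 in Python 3.11.15.

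The members, lists, markers and tests were chosen with earlier results of these data known. Named were the 10 genes, their 2 closest patterns each, from each list up to 4 genes by class difference and up to 2 more by difference between lines, and markers. Ext2, Aspn, Kera, Epyc, Agrn, Tgfbr3 and B3gat3 were named after their values were seen. Alternatives were median scaling over the 9414 probes above background on all arrays, cyclic loess, other filters and tails (0.001 and 0.05), an offset of 50, a variance trend, and leaving out each array.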

Additional observations from a re-analysis of the deposited data

Results flagged for a closer look

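On 6 of the 15 proteoglycan probes the lines lay on opposite sides of both normal arrays, with background values raised to the threshold; the difference between the lines was not tested. T23 was above and T1525 below on 5, as on 6.1% of all probes, and the reverse on 1, as on 6.25%. T23 minus T1525 was 6.16 at Bgn, 4.69 at Sdc2, 2.91 and 1.17 at the brighter and the dimmer probe of Ogn, and 1.90 at the dimmest probe of Dcn (log2). Sdc1 went the other way on its brighter probe, with T23 minus T1525 at -1.01.

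The same opposite placing, also not tested, was seen among the 66 measured genes of the lists, 9 with T23 above and 7 with T1525 above. Of all probes 6.1% had T23 above and 6.25% had T1525 above. T23 was the higher line at Esm1 (3.50), Chpf (2.29), Gpc4 (2.05), Tgfbr3 (1.89), Chst12 (1.48), Papss1 (1.34), Sdcbp (1.26), Prkca (1.15) and Csgalnact1 (1.10). T1525 was the higher line at Hs3st1, where T23 minus T1525 was -4.80, and at Agrn (-1.87), B3galt6 (-1.47), Sdcbp2 (-1.05), Gipc1 (-0.96), Gpc2 (-0.88) and B3gat3 (-0.68).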

How the results depend on the processing

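The tests rest on 4 arrays, and folds of probes near background are bounds. In the class comparison, leaving out 1 array at a time gave 0 to 4823 called probes against 1698 (4823 without T23, 4578 without T1525, 0 without either normal array), with 0 to 3 proteoglycan probes called higher and 0 to 11 lower. The proteoglycan probes called lower in the class comparison went from 2 to 1 with no filter, with background values raised to the threshold and with the offset of 50, and Lum was the one that no longer passed (adjusted p = 0.0527, 0.0986 and 0.0614). That count rose to 3 with median scaling and with the variance trend, where Fmod also passed (limma, adjusted p = 0.0465 and 0.0472). Leaving out 1 array moved the class difference between -4.41 and 2.19 for Bgn, -1.19 and 2.47 for Ogn, -0.54 and 0.48 for Sdc1 (0.36 without normal 2) and -4.08 and 1.08 for Sdc2.

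Setting values at background to the threshold lowered the prior degrees of freedom of the 3-group fit from 2.95 to 0.48 and left 1312 probes called in T23 against 4591, and 1709 in T1525 against 4695. Among the proteoglycan probes it left 1 higher and 0 lower in T23, and 0 higher and 1 lower (Sdc2) in T1525. In T23, 5 were called higher when probes had to be above background on at least 2 arrays, and 1 was called lower with the offset of 50. With that offset 0 probes were at least 1 unit higher in T1525 than in T23, against 1. Without a normal array the single-line fits have no residual degrees of freedom and gave no test. No paired analysis was possible because the labels pair no line with a normal array.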
